A study of Sus scrofa with 6 samples.

Results

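The pituitary libraries of a sow RNA sequencing series were compared with the hypothalamus and ovary libraries of the same series, to describe which genes set the pituitary apart from the tissues above and below it in the reproductive axis. The animals were Landrace x Large White sows that had borne 1 litter (primiparous sows), and each tissue gave 1 library from sows in estrus and 1 from sows whose anestrus the labels put down to inactive ovaries. Pituitary membership came from the tissue label, which 2 of the 6 libraries carry, and the other 4 are 2 hypothalamus and 2 ovary libraries. The labels give 3 sows per state and describe the organs as taken whole, and they do not say whether RNA of the sows was pooled or whether the lobes of the pituitary were separated. No transgene, drug or dose enters any group.

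The anterior lobe of the pituitary makes peptide and glycoprotein hormones in separate endocrine cell types, namely somatotrophs, lactotrophs, corticotrophs, thyrotrophs and gonadotrophs. Each type is set up by transcription factors of the pituitary lineage, stores its hormone in secretory granules and carries receptors for a releasing or inhibiting hormone that the hypothalamus sends through the portal blood. The intermediate lobe holds melanotrophs, which process the same precursor as corticotrophs, and the posterior lobe holds axon endings of hypothalamic neurons and glial cells called pituicytes. The ovary is the target of the gonadotropins.

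Levels are given as RPM, the recovered reads of a gene scaled to a library of 1000000 reads, and a pair of values always gives the estrous library first and the anestrous one second. RPM is not divided by gene length, so it compares 1 gene across libraries and not genes with each other. The libraries held between 15314325 and 17384789 reads, so that 1 read was worth 0.0575 to 0.0653 RPM, and the sum of a gene's reads limits the precision of its values. Each tissue had its own deposited table, normalised separately by the authors, and going back to reads removes that scaling before values from different tables are set side by side. A gene was called higher or lower than a tissue when limma gave a Benjamini-Hochberg adjusted p of at most 0.05 and the mean log2(RPM + 1) differed by at least 1, and every adjusted p below comes from that test over 13483 genes. The 2 libraries of a tissue come from different states, so the spread behind each test holds the difference between states as well as that between samples, and the p-values measure the spread of these 6 libraries only.

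Of the 13483 genes tested, 413 (3.06%) were higher in the pituitary than in both other tissues and 832 (6.17%) were lower than in both. Against the hypothalamus alone, 1197 genes (8.88%) were higher and 2979 (22.1%) lower in the pituitary. Against the ovary alone, 1592 (11.8%) were higher and 2665 (19.8%) lower. In 420 genes the pituitary lay between the others, higher than the ovary and lower than the hypothalamus, and in 153 the order was the reverse. The counts against both tissues changed with the libraries used. Without the estrous or the anestrous hypothalamus library they fell to 266 and 246 higher and 352 and 406 lower, and without the estrous or the anestrous pituitary library to 236 and 260 higher and 404 and 257 lower. Without the estrous or the anestrous ovary library they were 514 and 423 higher and 1065 and 1002 lower. Count tests on the recovered reads gave 563 higher and 600 lower with edgeR and 617 and 809 with DESeq2. Over all genes the pituitary libraries correlated with each other at a Spearman rho of 0.983, with the hypothalamus libraries at 0.785 to 0.798 and with the ovary libraries at 0.744 to 0.787, as a description across genes, which are not independent of each other.

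**Figure D1:**
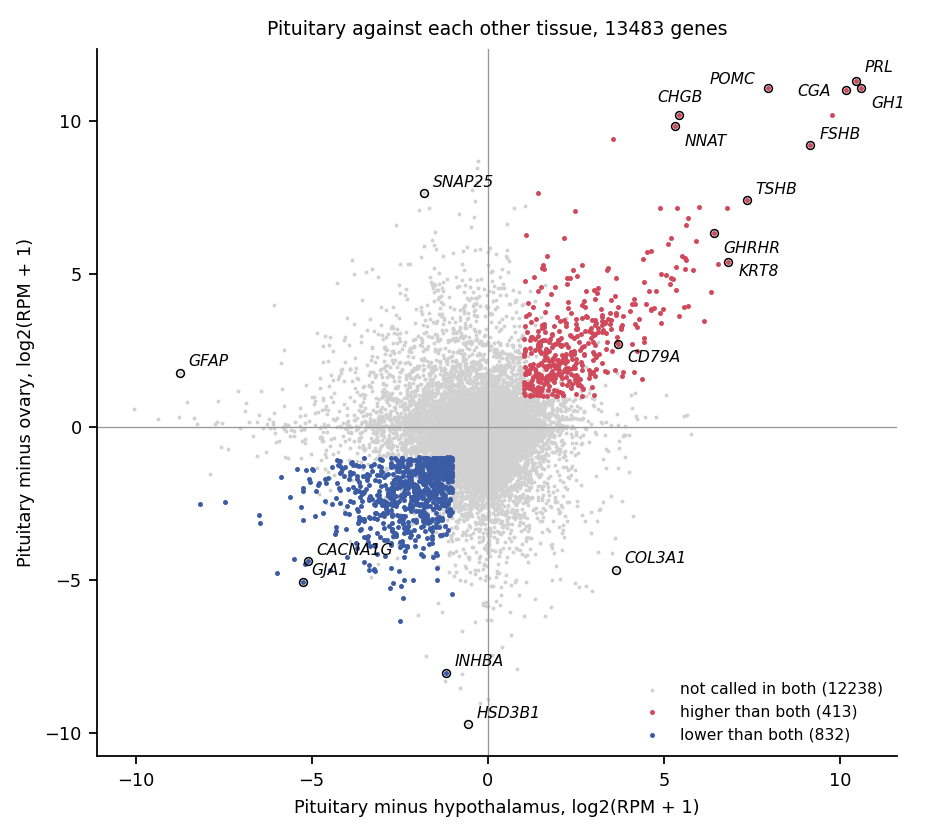
Difference of the pituitary from the hypothalamus (horizontal axis) and from the ovary (vertical axis) in mean log2(RPM + 1), 1 point per gene tested, with genes higher than both tissues in red (413), lower than both in blue (832) and others in grey. The hormone genes stand in the upper right corner, the glial gene GFAP at the far left, and the ovarian steroid enzyme HSD3B1 at the bottom.

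Hormone genes took a large part of the pituitary reads. Together the 6 hormone genes found by name held 24.9% of reads in the estrous and 26.0% in the anestrous pituitary library (25.4% ± 0.760, SD, n = 2). In the hypothalamus they held 0.0459% and 0.020% of reads, and in the ovary 0.0104% and 0.010%. The pituitary pair was above the other 4 libraries, for which the exact two-sided permutation test over the 15 possible splits gave p = 0.0667, the smallest this design allows. PRL (prolactin) alone held 12.6% and 15.4% of pituitary reads, GH1 (growth hormone) 6.35% and 6.85%, POMC, the precursor of corticotropin and the melanocortins, 4.75% and 1.89%, and CGA, the alpha subunit that the glycoprotein hormones share, 1.13% and 1.58%. A further pair of genes that are no hormones took shares of like size. CHGB, a protein of the secretory granule matrix, held 1.88% and 3.11%, and NNAT (neuronatin), a small membrane protein of the endoplasmic reticulum, 2.48% and 2.21%. By contrast, the 13 protein genes of the mitochondrial genome held 4.20% and 5.09% of pituitary reads against 17.8% and 20.6% in the hypothalamus and 4.35% and 5.91% in the ovary.

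**Figure D2:**
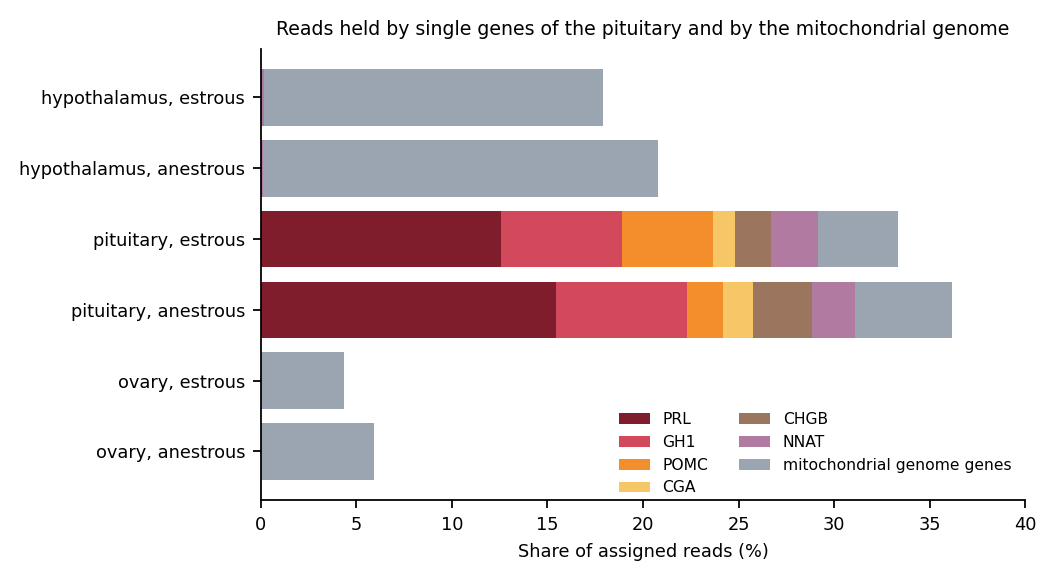
Share of each library's reads (horizontal axis, percent) held by PRL, GH1, POMC, CGA, CHGB, NNAT and the 13 mitochondrial genome genes, 1 bar per library. The hormone segments are wide in the 2 pituitary bars only, where PRL alone reaches 12.6% and 15.4%, and the mitochondrial segment is widest in the hypothalamus, at 17.8% and 20.6%.

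All 6 hormone genes were called higher than both tissues, and no library of another tissue came near the pituitary pair. PRL (ENSSSCG00000001082) stood at 125598 and 154283 RPM in the pituitary, at 96.6 and 101 in the hypothalamus and at 54.4 and 53.1 in the ovary. On the log2(RPM + 1) scale PRL was 10.45 ± 0.20 (SE) above the hypothalamus (adjusted p = 7.41e-06) and 11.31 ± 0.20 above the ovary (adjusted p = 4.45e-06). GH1 (ENSSSCG00000017284) stood at 63509 and 68548 RPM against 42.8 and 40.9 in the hypothalamus and 30.3 and 28.4 in the ovary, with differences of 10.59 ± 0.17 and 11.09 ± 0.17. In ratios of mean RPM, PRL was 1416-fold above the hypothalamus and 2604-fold above the ovary, and GH1 1577-fold and 2252-fold. The 2 pituitary values of both genes lay close together beside these distances.

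The glycoprotein hormone subunits showed the same separation with more spread between the pituitary libraries. CGA stood at 11349 and 15782 RPM in the pituitary, 11.5 and 9.68 in the hypothalamus and 5.23 and 5.66 in the ovary. FSHB, the beta subunit of follicle-stimulating hormone, stood at 496 and 1853 RPM, and its 4 other values lay between 0.608 and 0.718. TSHB, the beta subunit of thyrotropin, stood at 281 and 134 RPM, with values from 0.0646 to 0.243 in the other tissues. FSHB was the higher of its pair in anestrus and TSHB in estrus. The lower pituitary value of each still exceeded every other library by over 100 RPM. Over both pituitary libraries, the mean difference of FSHB was 9.16 ± 0.57 from the hypothalamus and 9.20 ± 0.57 from the ovary on the log2 scale. That of TSHB was 7.35 ± 0.39 and 7.40 ± 0.39. LHB, the luteinizing hormone subunit, was not found by name and was not analysed here.

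POMC had the widest spread among the hormones. It stood at 47518 and 18906 RPM in the pituitary, 307 and 47.1 in the hypothalamus and 13.8 and 12.1 in the ovary. The estrous library was the higher of the pair in the pituitary and in the hypothalamus, where POMC neurons of the arcuate nucleus are a known source. The pituitary stood 7.95 ± 0.85 above the hypothalamus (adjusted p = 0.00109), the largest standard error of the 6 hormones, and 11.07 ± 0.85 above the ovary (adjusted p = 0.000351).

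Among called genes without a symbol in the tables or the name list, 1 had a difference as large as the hormones. ENSSSCG00000003151 stood at 3787 and 6928 RPM in the pituitary, 4.31 and 5.50 in the hypothalamus and 3.23 and 3.47 in the ovary, which put it 9.77 ± 0.31 and 10.20 ± 0.31 above them (adjusted p = 3.72e-05 and 2.11e-05). The next gene without a symbol, ENSSSCG00000013636, stood at 52.4 and 51.5 RPM in the pituitary and below 1 RPM in the 4 other libraries. In all, 36 of the 413 higher genes had no symbol.

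Hormone reads outside the pituitary came to a small share of the pituitary level. In the ovary the mean of PRL came to 0.0384% of its pituitary mean, of GH1 to 0.0444%, of POMC to 0.0389%, of CGA to 0.0401%, of FSHB to 0.0534%, of TSHB to 0.0742% and of ENSSSCG00000003151 to 0.0625%. In the hypothalamus the shares were 0.0706% for PRL, 0.0634% for GH1, 0.0780% for CGA, 0.0575% for FSHB, 0.0930% for TSHB and 0.0916% for ENSSSCG00000003151, while that of POMC, which hypothalamic neurons also make, was 0.533%. In the other direction, the ovarian steroid genes HSD3B1, CYP17A1 and STAR reached 0.0365%, 0.0446% and 0.0569% of their ovary mean in the pituitary. The source of these reads was not tested. Of the 66 genes higher than both tissues with a pituitary mean of at least 100 RPM, 11 had an ovary mean and 6 a hypothalamus mean under 0.1% of it.

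Transcription factors of the pituitary lineage were higher than both tissues in 8 of the 15 members tested and lower than both in none. The shares over all genes were 3.06% higher and 6.17% lower. The list's median difference was 2.48 from the hypothalamus and 5.0 from the ovary, beside -0.26 and -0.27 over all genes tested. POU1F1, which drives the GH1, PRL and TSHB genes, stood at 59.1 and 45.6 RPM in the pituitary and at no more than 0.196 in any other library (5.51 ± 0.27 above the hypothalamus, adjusted p = 0.000119). TBX19, the activator of POMC in corticotrophs and melanotrophs, stood at 70.2 and 66.6 RPM against 1.57 and 0.569 in the hypothalamus and 0 and 0.243 in the ovary. Both pituitary libraries lay above all 4 others for either gene, as they did for all 413 genes called higher than both tissues.

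Other factors of the list were called as well. SIX6, a homeobox factor, stood at 88.1 and 80.0 RPM against 2.09 and 0.696 in hypothalamus and 0.258 and 0.122 in ovary libraries. NEUROD4, a factor of endocrine differentiation, stood at 31.7 and 30.3 RPM and had 0 reads in either ovary library, which puts it at least 330-fold above the ovary when 3 reads over that tissue are taken as the floor. INSM1, another factor of endocrine cells, stood at 49.6 and 22.8 RPM against 5.94 and 4.93 in the hypothalamus and 0 reads in the ovary, a call that did not hold without the anestrous hypothalamus library (adjusted p = 0.0518, limma).

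Several factors that the pituitary shares with a neighbour were not called in both comparisons. FOXL2, which activates gonadotropin and follistatin genes and is a factor of granulosa cells as well, stood at 12.5 and 7.71 RPM in the pituitary, 0.0653 and 0.190 in the hypothalamus and 40.9 and 11.0 in the ovary, so it was higher than the hypothalamus (3.27 ± 0.59, adjusted p = 0.00671) while the ovary difference was -1.05 ± 0.59 (adjusted p = 0.203). ISL1, SOX2, a factor of stem cells, and RXRG were higher than the ovary only, with hypothalamus differences of 0.56, -0.73 and 0.89. GATA2, of thyrotrophs and gonadotrophs, stood at 15.8 and 21.6 RPM, with 9.73 and 7.21 in the hypothalamus and 18.9 and 8.70 in the ovary, and was called in neither. SOX3 passed neither test, and FOXO1 was lower than the ovary (-1.93 ± 0.47). LHX4, NEUROD1 and EYA1 fell below the filter of a mean of 1 RPM, and PITX1, NR5A1, LHX3, HESX1, PAX7, NR4A1 and NEUROD2 were not found by name.

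Receptors through which the hypothalamus controls the pituitary were higher than both tissues in 4 of 10 members tested and lower than both in none (medians 0.96 and 1.71). The shares over all genes were 3.06% higher and 6.17% lower. DRD2, the dopamine receptor that holds lactotrophs and melanotrophs in check, stood at 510.2 and 568 RPM in the pituitary, 17.8 and 16.9 in the hypothalamus and 2.91 and 2.74 in the ovary (4.88 ± 0.19 and 7.14 ± 0.19, adjusted p = 7.1e-05 and 1.33e-05). GHRHR, the receptor of somatotrophs for growth hormone-releasing hormone, stood at 87.2 and 94.4 RPM and at no more than 0.323 elsewhere (6.43 ± 0.27 and 6.32 ± 0.27). Both had pituitary values that differed little between the libraries.

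The receptors of corticotrophs and gonadotrophs had larger gaps between the 2 pituitary libraries. AVPR1B, the vasopressin receptor of corticotrophs, stood at 99.1 and 22.9 RPM in the pituitary, had 0 reads in either hypothalamus library and 0.0646 and 0.0608 RPM in the ovary. Against a floor of 3 reads over the hypothalamus libraries it was at least 633-fold higher (adjusted p = 0.00122). GNRHR, the gonadotropin-releasing hormone receptor, stood at 26.7 and 10.9 RPM and at no more than 0.183 in the other tissues (4.09 ± 0.42 and 4.02 ± 0.42). CRHR1, the corticotropin-releasing hormone receptor, stood at 11.0 and 3.34 RPM against 1.04 and 1.96 in the hypothalamus and 0.129 and 4.81 in the ovary, and its anestrous pituitary value lay below the anestrous ovary value, so that it was called in neither comparison (adjusted p = 0.185 and 0.197).

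Some other members of the receptor list were lower than the hypothalamus, as were 22.1% of all genes. SSTR1, a somatostatin receptor, stood at 0.412 and 0.518 RPM in the pituitary and 6.66 and 5.06 in the hypothalamus, ADCYAP1R1, the receptor of the peptide PACAP, at 2.88 and 2.07 and 71.7 and 70.4, and VIPR2 at 0.470 and 0.518 and 3.46 and 8.92, and all 3 were called lower than the hypothalamus. SSTR2 and SSTR3 were higher than the ovary only. TRHR, GHSR and KISS1R were below the filter, with TRHR at 2.47 and 0.805 RPM in the pituitary and at most 0.261 in the other tissues.

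**Figure D3:**
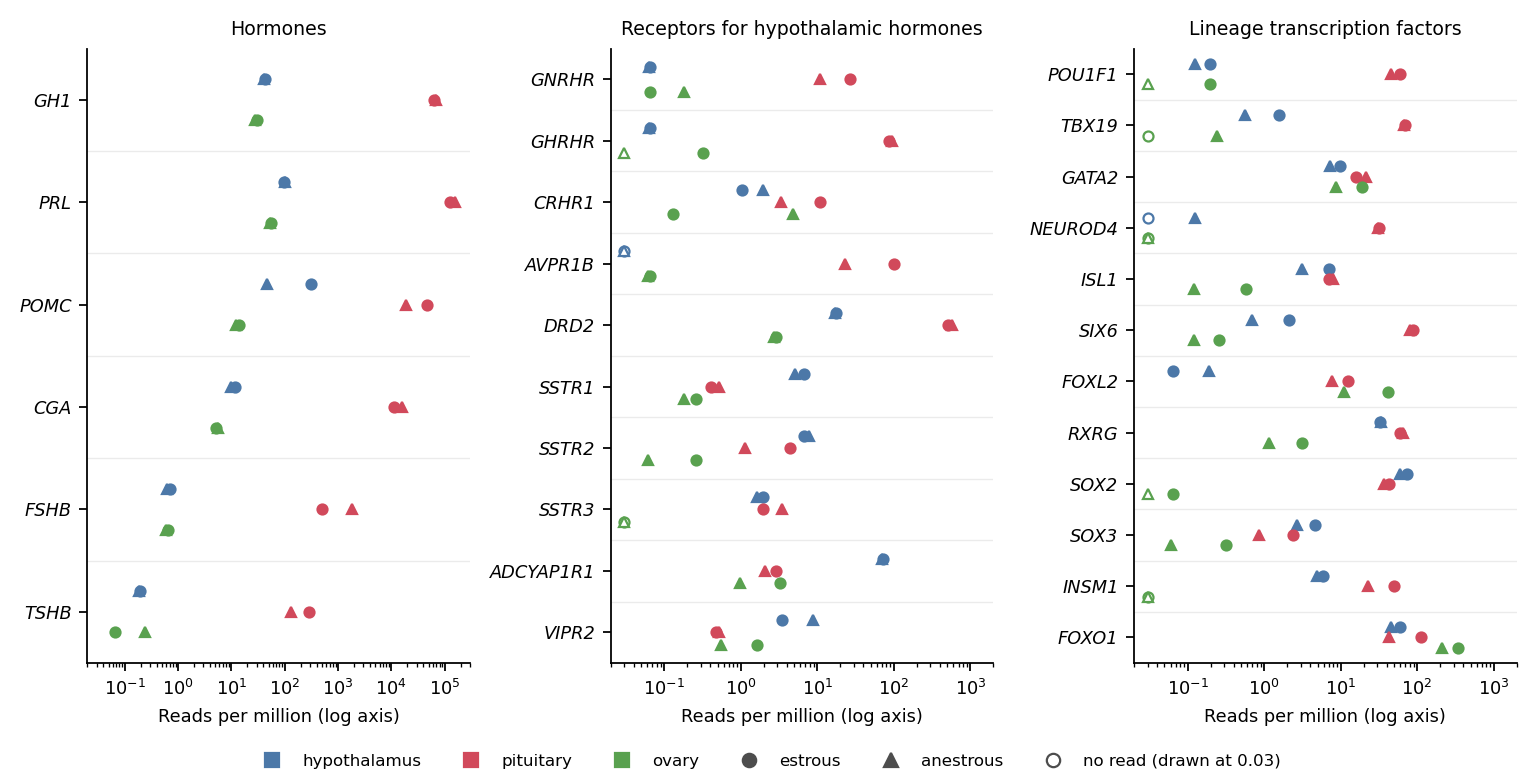
RPM (log axis) of tested hormone genes, receptors for hypothalamic hormones and 12 of the 15 lineage transcription factors, 1 point per library, with colour for tissue, circles for estrous and triangles for anestrous libraries, and open marks at 0.03 for libraries with no read. Pituitary points stand far to the right for the 6 hormones, DRD2, GHRHR, AVPR1B and GNRHR and for POU1F1, TBX19, NEUROD4, SIX6 and INSM1, and among the hypothalamus points for ISL1, SOX2 and SSTR3.

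Genes of secretory granules and prohormone processing were called higher than the ovary in most members and than the hypothalamus in few. Of 24 members tested, 18 were higher and 2 lower than in the ovary, whereas 5 were higher and 8 lower than in the hypothalamus, with medians of 3.61 and -0.15. Over all genes, 11.8% were higher and 19.8% lower than in the ovary, and 8.88% higher and 22.1% lower than in the hypothalamus. The 8 fell to 5 without any 1 hypothalamus library and without the anestrous pituitary library, and the 2 to 1 without the estrous pituitary library. The 5 that were higher than both tissues, beside 3.06% of all genes, were CHGB, CHGA, SCG5, SCG3 and RAB27A. CHGB stood at 18774 and 31112 RPM in the pituitary, 516 and 604 in the hypothalamus and 14 and 27.3 in the ovary (5.43 ± 0.37 and 10.20 ± 0.37). CHGA, the other main granin, stood at 3400.5 and 2057, 252 and 254 in hypothalamus and 138 and 40.3 in ovary libraries RPM. RAB27A, a small GTPase that docks granules at the membrane, stood at 216 and 181 RPM against 9.99 and 8.16 in the hypothalamus and 12.7 and 20.7 in the ovary (4.31 ± 0.28 and 3.53 ± 0.28). SCG3 was just past the threshold against the hypothalamus (1.08 ± 0.33, adjusted p = 0.0428), and 6 alternatives ended its call, among them leaving out any 1 pituitary or hypothalamus library (adjusted p = 0.0546 to 0.197).

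The processing enzymes lay at or under hypothalamic levels. PCSK2, a prohormone convertase, stood at 75.1 and 57.5 RPM in the pituitary, 88.8 and 112 in the hypothalamus and 0.129 and 0.122 in the ovary, so the difference was 5.89 ± 0.24 from the ovary (adjusted p = 5.03e-05) and -0.59 from the hypothalamus (adjusted p = 0.102). CPE, the carboxypeptidase of granules, was -1.27 from the hypothalamus and 4.74 from the ovary, called in both with opposite signs. PAM, which amidates peptides, stood at 530.0 and 492 RPM against 675 and 656 in hypothalamus and 349.6 and 421 in ovary libraries and was called in neither. Of the release machinery, SNAP25 stood at 429.6 and 363 RPM, under the hypothalamus values of 1187 and 1625 and over the ovary values of 0.710 and 1.34, and SYT1 at 52.3 and 58.1 against 652 and 923 in hypothalamus and 0.839 and 0.669 in ovary libraries. SYTL2, a partner of RAB27 proteins, was the 1 member lower than both, at 8.35 and 3.62 RPM against 38.0 and 49.5 in hypothalamus and 37.5 and 48.0 in ovary libraries.

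Markers of the intermediate and posterior lobes were present to different degrees. Of 6 melanotroph genes tested, POMC, DRD2 and TBX19, which corticotrophs or lactotrophs also express, were higher than both tissues. Of 11 posterior lobe and pituicyte genes tested, RAX and LHX2, both homeobox factors of tanycytes and pituicytes, were higher than both. The share higher than both over all genes was 3.06%. Against the hypothalamus 4 of these 11 genes were higher and 4 lower, beside 8.88% and 22.1% of all genes. Against the ovary 6 were higher and 3 lower, beside 11.8% and 19.8% of all genes. RAX stood at 10.8 and 6.33 RPM, with 0.131 and 0 in the hypothalamus and 0 reads in the ovary, and LHX2 at 18.0 and 12.8 RPM with 4.57 and 3.48 in the hypothalamus, where its call did not hold without the anestrous hypothalamus library (adjusted p = 0.0551, limma). The hormones whose transcripts are made in hypothalamic cell bodies were low, with AVP (vasopressin) at 6.06 and 6.04 RPM and OXT (oxytocin) at 27.4 and 13.3 RPM in the pituitary against 896 and 27.5 and 262 and 36.2 in the hypothalamus. Their hypothalamus values differed widely between the libraries, and only AVP was called lower (adjusted p = 0.0458, and 0.0799 for OXT). A library that held less of a lobe and one whose lobe held less RNA per cell cannot be told apart in such tissue samples, and the same holds for every cell type named below.

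Markers of folliculostellate and stem cells were higher than both tissues in 5 of 13 members tested, beside 3.06% of all genes. Of these 5, 4 are genes of epithelium at large. KRT8 and KRT18, keratins that pair in simple epithelium, stood at 654 and 636 and 202 and 202 RPM in the pituitary. KRT8 had 9.27 and 2.21 RPM in the hypothalamus and 31.2 and 6.51 in the ovary, and KRT18 had 1.96 and 2.34 in hypothalamus and 0.775 and 0.122 in ovary libraries. EPCAM, an adhesion molecule of epithelial cells, stood at 509 and 410.0 RPM against 4.18 and 3.6 in hypothalamus and 4.84 and 21.1 in ovary libraries (6.55 ± 0.57 and 5.33 ± 0.57). KRT19 stood at 81.4 and 69.0 RPM against 6.66 and 1.14 in hypothalamus and 14.2 and 3.04 in ovary libraries, and 3 alternatives ended its call (adjusted p = 0.0557 to 0.106). ALDH1A1, an enzyme of retinoic acid synthesis, stood at 152 and 148 RPM against 18.2 and 9.42 in hypothalamus and 5.94 and 1.52 in ovary libraries. ALDH1A2, another such enzyme, was higher than the hypothalamus (147 and 198 against 2.55 and 1.77 RPM) and not separated from the ovary (435 and 91.6 RPM, adjusted p = 0.81). SOX9, CRYAB and GFAP were lower than the hypothalamus.

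More genes known from epithelium stood among the 413, and those in this paragraph were chosen after their values were seen unless the largest-difference rule had already named them, as it did RAB25, WFDC2 and SCNN1G. RAB25, a GTPase of epithelial recycling endosomes, stood at 48.6 and 52.1 RPM in the pituitary and at most 0.323 elsewhere (5.64 ± 0.26 and 5.44 ± 0.26). ESRP1, a splicing regulator of epithelial cells, stood at 93.0 and 83.9 RPM against 0.0653 and 0.127 in the hypothalamus and 6.2 and 1.46 in the ovary. The transcription factors ELF3 and GRHL2 stood at 8.82 and 13.0 and 12.6 and 9.84 RPM, and at most at 0.243 and 1.61 in the other libraries. CLDN4 and CLDN8, claudins of tight junctions, stood at 30.5 and 26.6 and 12.8 and 11.0 RPM, with CLDN4 at 1.61 and 6.08 in the ovary and CLDN8 without a read in the hypothalamus. All 3 subunits of the epithelial sodium channel were called, with SCNN1G at 88.1 and 106, SCNN1A at 56.3 and 45.3 and SCNN1B at 32.3 and 25.0 RPM, and none of their other values passed 3.83. WFDC2, a secreted protease inhibitor-like protein, stood at 240.3 and 204 RPM against 4.57 and 2.40 in hypothalamus and 1.29 and 0.669 in ovary libraries. For each of these genes both pituitary libraries lay above the 4 others. The same held for all 413 genes called higher than both tissues, and for 1265 of the 13483 tested, called or not. KRT5 and KRT14, keratins of stratified epithelium, were below the filter and had 0 reads in either pituitary library.

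The remaining genes with the largest differences belong to no fixed list. NNAT stood at 24762 and 22059 RPM in the pituitary, 633 and 535 in the hypothalamus and 20.3 and 30.2 in the ovary (5.33 ± 0.25 and 9.82 ± 0.25). In the RefSeq gene table of assembly Sscrofa11.1 NNAT lies inside BLCAP, and BLCAP was also called, at 763 and 810.3, 340.2 and 365 in hypothalamus and 57.8 and 38.5 in ovary libraries RPM, a gene named after its values were seen. Reads of overlapping genes cannot be told apart where counting ignores strand, and the use of strand is not given in the sources used here. MSX1, a homeobox factor, stood at 210.0 and 135 RPM against 3.33 and 1.71 in hypothalamus and 1.36 and 0.304 in ovary libraries. KIAA1324, a membrane protein of the secretory and lysosomal route, stood at 890.3 and 1038 RPM against 22.5 and 22.1 in the hypothalamus and 0.904 and 22.9 in the ovary. Leaving out any 1 pituitary or hypothalamus library ended the call of KIAA1324 (adjusted p = 0.0581 to 0.0715) and of BLCAP (adjusted p = 0.0579 to 0.0816). IGSF1, a membrane glycoprotein whose loss in humans causes central hypothyroidism, named after its values were seen, stood at 2785 and 2478, 241 and 207 in hypothalamus and 3.94 and 2.01 in ovary libraries RPM (3.55 ± 0.27 and 9.41 ± 0.27).

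The deposited tables carry pathway and gene ontology terms, and the terms described here were picked because many of their genes were called, so their counts are a description with no test. Of 28 tested genes annotated with hormone activity, 7 were higher than both tissues (25.0%, against 3.06% of all genes), which were GH1, PRL, CGA, FSHB, TSHB, GPHA2 and FAM132A, the last with a call that 6 alternatives ended (adjusted p = 0.0511 to 0.132). GPHA2, the alpha subunit of thyrostimulin, stood at 6.17 and 8.46 RPM and had 0 reads in the 4 other libraries. In the prolactin signalling pathway 6 of 45 were higher (13.3%). Beside PRL and CGA these included SOCS2 and CISH, inhibitors of cytokine receptor signalling that STAT5 induces, at 109.7 and 104 and 16.2 and 9.38 RPM. SOCS2 stood at 4.05 and 5.57 in the hypothalamus and 25.0 and 13.6 in the ovary, and CISH at 2.29 and 0.759 in hypothalamus and 3.42 and 3.77 in ovary libraries. The call of CISH ended in 3 alternatives (adjusted p = 0.0505 to 0.15). Among the terms with many lower genes was neural crest cell migration, with 9 of 26 lower than both (34.6%, against 6.17%), 6 of them genes of the semaphorin guidance proteins. SEMA3C was at 0.705 and 0.575 RPM in the pituitary, 7.38 and 6.96 in the hypothalamus and 18.7 and 12.5 in the ovary, and EDNRB, the endothelin receptor, at 1.12 and 1.32, 24.4 and 20.6 in hypothalamus and 28.6 and 30.3 in ovary libraries. The phosphatidylinositol signalling pathway had 13 of 61 lower (21.3%) and none higher.

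Neuronal genes placed the pituitary between the other tissues. Of 11 tested, 10 were lower than the hypothalamus and 9 higher than the ovary, with medians of -3.79 and 4.38. For this list and those below, the shares over all genes were 22.1% lower than the hypothalamus and 11.8% higher than the ovary. MAP2, a microtubule protein of neurons, stood at 407 and 369 RPM in the pituitary, 2282 and 2091 in the hypothalamus and 18.9 and 16.4 in the ovary. The markers of inhibitory neurons were close to nothing, with SLC32A1 at 0.118 and 0 RPM against 55.6 and 93.0 in the hypothalamus, and GAD1 at 1.53 and 0.460 against 201 and 249. Of 13 hypothalamic peptides tested, 10 were lower than the hypothalamus, among them SST with 0 reads in either pituitary library against 69.5 and 74.6 RPM, and TRH at 0.647 and 0.173 against 25.5 and 33.4. All 8 astrocyte and all 8 myelin genes tested were lower than the hypothalamus, with GFAP at 28.5 and 23.9 RPM against 14495 and 9342. Of choroid plexus and ependyma genes 4 of 5 were lower, and 1 of 5 without the anestrous pituitary library.

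Genes of protein synthesis and folding were in part called higher than the hypothalamus, by counts that changed with the libraries used, and had no call against the ovary. The shares over all genes were 8.88% higher and 22.1% lower than the hypothalamus, and 11.8% higher and 19.8% lower than the ovary. Of 22 genes of the endoplasmic reticulum and secretory pathway, 14 were higher than the hypothalamus, none was lower and none was called against the ovary (medians 1.34 and 0.08). The 14 fell to 8 without the estrous and 7 without the anestrous hypothalamus library, and to 9 without the anestrous pituitary library. SSR4, a subunit of the translocon-associated complex, stood at 411 and 649.6 RPM against 72.5 and 55.8 in the hypothalamus and 272 and 361 in the ovary, and CREB3L1, a factor of the secretory stress response, at 106 and 79.4 against 13.1 and 11.6 in hypothalamus and 85.0 and 112 in ovary libraries. HSPA5, the main chaperone of the endoplasmic reticulum, stood at 1578 and 1863 RPM against 649.8 and 627 in hypothalamus and 972 and 1603 in ovary libraries. Of 13 ribosomal protein genes, 11 were higher than the hypothalamus and none was called against the ovary (medians 1.51 and -0.26), with RPL5 at 1464 and 1523, 388 and 375 in hypothalamus and 1867 and 1106 in ovary libraries RPM. The 11 fell to 6 without the estrous and 2 without the anestrous hypothalamus library, and to 7 and 5 without the estrous and the anestrous pituitary library. The ovary median of the ribosomal list changed sign with the scaling, to 0.28 without the dominant genes, 0.09 with trimmed means and 0.06 with medians of ratios. Without the dominant genes 5 of the endoplasmic reticulum genes were called higher than the ovary. Of 17 nuclear genes of oxidative phosphorylation, NDUFA4 was lower than both tissues (61.1 and 39.2 RPM against 282 and 316 in hypothalamus and 147 and 126 in ovary libraries, with the ovary difference at -0.92 without the dominant genes, which ends the call) and COX5A was lower than the hypothalamus. These counts do not set the list apart from all genes, of which 6.17% were lower than both tissues and 22.1% lower than the hypothalamus. The 2 genes of this list lower than the hypothalamus became 1 without the anestrous hypothalamus or the anestrous pituitary library.

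Receptors and channels of endocrine cells had few calls against both tissues. Among 11 steroid and thyroid hormone receptor genes, THRB, a thyroid hormone receptor, stood at 147 and 180.4 RPM against 54.3 and 57.3 in hypothalamus and 20.1 and 13.4 in ovary libraries, and PGR, the progesterone receptor, at 25.7 and 12.5 against 0.914 and 0.759 in hypothalamus and 7.10 and 2.68 in ovary libraries, and both were higher than both tissues. PGR lost its call without any 1 pituitary or hypothalamus library and without the anestrous ovary library (adjusted p = 0.0527 to 0.160). ESR1, an estrogen receptor that occurs at 2 places in the tables, was higher than the hypothalamus (60.4 and 71.1 against 14.4 and 10.6 RPM) and overlapped the ovary (126 and 23.6). NR3C1, the glucocorticoid receptor, was lower than the hypothalamus (14.4 and 5.64 against 39.0 and 30.9 RPM). None of 14 membrane receptors for growth factors and hormones was called in the same direction against both tissues, beside 3.06% higher and 6.17% lower over all genes, and 7 were lower than the hypothalamus, beside 22.1% of all genes. These 7 fell to 4 without the estrous hypothalamus or the anestrous pituitary library. Of 16 calcium, potassium and sodium channel genes, KCNK1 was higher than both (29.5 and 21.1 RPM against 6.14 and 9.17 in hypothalamus and 1.03 and 2.19 in ovary libraries) and CACNA1G and SCN1A were lower than both, counts too small to set the list apart from the shares over all genes. CACNA1G, a T-type calcium channel, stood at 2.53 and 1.27 RPM against 61.1 and 154 in hypothalamus and 123 and 27.6 in ovary libraries (adjusted p = 0.0550 without the anestrous pituitary library). The calls of KCNK1 and SCN1A ended in more alternatives, with adjusted p of 0.0577 to 0.116 in the 4 alternatives that ended the former and 0.0525 to 0.221 in the 11 that ended the latter.

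**Figure D4:**
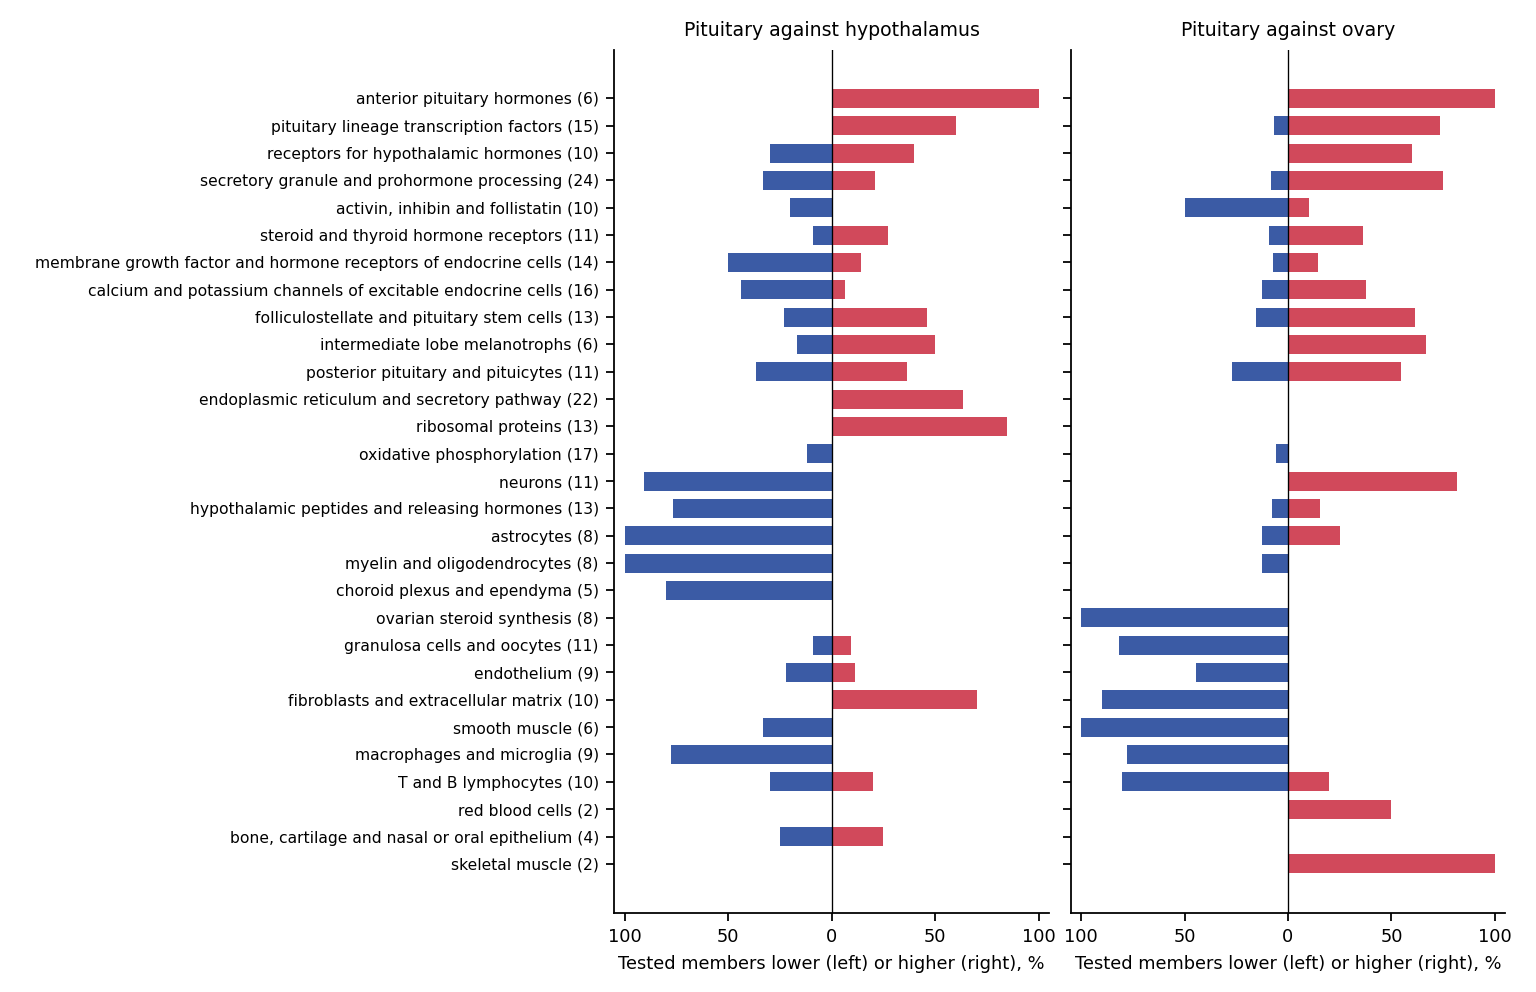
Share of the tested members of each gene list (number tested in brackets) called higher (red, to the right) or lower (blue, to the left) in the pituitary than in the hypothalamus (left panel) and the ovary (right panel). Hormones reach 100% on the right in both panels, astrocyte and myelin genes 100% on the left against the hypothalamus, and steroid synthesis genes 100% on the left against the ovary.

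Of 10 genes of the activin system tested, 5 were lower than the ovary, beside 19.8% of all genes. None was higher than both tissues, beside 3.06% of all genes, while INHBA and BMPR1B were lower than both tissues (medians -0.49 and -1.01). INHBA, the beta A subunit of activins and inhibins, stood at 0.235 and 0.345 RPM in the pituitary, 1.83 and 2.09 in the hypothalamus and 403 and 282 in the ovary, and 5 alternatives ended its call against the hypothalamus (adjusted p = 0.0770 to 0.205). FST, the activin-binding follistatin, stood at 2.65 and 1.73 RPM against 129 and 84.1 in the ovary, and INHA at 3.41 and 3.80 against 5575 and 882. BMPR1B, a receptor of bone morphogenetic proteins, stood at 1.94 and 2.30 RPM against 55.4 and 43.3 in hypothalamus and 63.3 and 53.4 in ovary libraries (-4.0 ± 0.23 and -4.25 ± 0.23). All 8 steroid synthesis genes and 9 of 11 granulosa cell and oocyte genes were lower than the ovary, and LHCGR and FSHR, the gonadotropin receptors, stayed under 1 RPM in either pituitary library.

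The gene lower than both tissues by the most was GJA1, which encodes the gap junction protein connexin 43. It stood at 19.0 and 15 RPM in the pituitary, 729 and 641 in the hypothalamus and 729 and 501 in the ovary, and the groups did not overlap (differences of -5.26 ± 0.24 and -5.08 ± 0.24, adjusted p = 9.76e-05 and 7.76e-05). HDC, which makes histamine, stood at 0.0588 and 0.0575 RPM against 76.9 and 56.3 in hypothalamus and 83.0 and 9.19 in ovary libraries, and FGF13, an intracellular fibroblast growth factor homologue, at 2.65 and 2.47 against 118 and 138 in hypothalamus and 168 and 36.0 in ovary libraries. FSCN1, an actin-bundling protein, stood at 4.0 and 2.76 RPM, while its 4 other values lay between 44.5 and 53.1. IL33, an alarmin cytokine, stood at 2.0 and 1.09 RPM against 26.1 and 25.9 in hypothalamus and 37.6 and 23.8 in ovary libraries, and NR2F1, a nuclear receptor, at 6.0 and 9.20 against 82.9 and 95.9 in hypothalamus and 169.6 and 62.2 in ovary libraries. Several others among the 15 with the largest negative differences had ovary values that differed widely, such as CXCL14, a chemokine, at 43.3 and 651 RPM in the ovary, and SELPLG, a selectin ligand of white blood cells, at 30.2 and 300.4. The call of HDC ended without any 1 pituitary library (adjusted p = 0.0565 and 0.0604) and that of SELPLG without any 1 pituitary or hypothalamus library (adjusted p = 0.103 to 0.135), and 10 alternatives ended the call of CXCL14 (0.0546 to 0.180).

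Macrophage genes were lower in the pituitary than in both tissues in 6 of 9 members tested, a count that fell to 3 without the estrous hypothalamus library and to 2 without the anestrous pituitary library. TYROBP, a signalling adaptor of myeloid cells, was among the 6 and lost its call in 6 alternatives (adjusted p = 0.0515 to 0.158). With the dominant genes left out, or with medians of ratios, 5 macrophage genes were lower than both. Trimmed means and edgeR gave 4, and DESeq2 gave 7. The share lower than both over all genes was 6.17%. C1QC, a complement subunit made by macrophages and microglia, stood at 95.5 and 73.8 RPM against 395 and 310.1 in the hypothalamus and 491 and 444 in the ovary, and AIF1 at 6.70 and 4.26 against 88.0 and 65.7 in hypothalamus and 31.2 and 130.3 in ovary libraries. Among 10 lymphocyte genes CD2 and PTPRC were among those lower than both, and CD79A and CD79B were higher than both, beside 3.06% higher over all genes. The 3 lower ones fell to 1 without any 1 hypothalamus library and to 0 without the anestrous pituitary library, where CD79B was the 1 higher gene left. CD79B, a chain of the B cell receptor complex, stood at 16.0 and 24.3 RPM against 0.326 and 0 in hypothalamus and 1.61 and 0.548 in ovary libraries, and its partner CD79A at 15.9 and 24.9 against 0.718 and 0.506 in hypothalamus and 1.03 and 4.08 in ovary libraries. MS4A1, another B cell marker, was below the filter, at 0.353 and 0.345 RPM in the pituitary. PTPRC, the pan-leukocyte marker CD45, stood at 14.4 and 6.85 RPM against 68.6 and 46.9 in hypothalamus and 52.7 and 127 in ovary libraries. Without the anestrous pituitary library adjusted p was 0.0588 for CD79A, 0.0694 for AIF1, 0.108 for CD2 and 0.0904 for PTPRC, which ended these calls. Leaving out a hypothalamus library also ended those of AIF1 and CD2 (estrous) and of PTPRC (any 1). In the RefSeq gene table of Sscrofa11.1 CD79B is the gene next to GH1, with 0 genes listed between them. Whether this position bears on the reads of CD79B was not tested.

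Extracellular matrix and smooth muscle genes were mostly lower than the ovary, while the calls of endothelial genes were mixed. Of 10 extracellular matrix genes, 7 were higher than the hypothalamus and 9 lower than the ovary, beside 8.88% and 19.8% of all genes. The 7 fell to 4 without the estrous and 2 without the anestrous hypothalamus library, and to 2 and 3 without the estrous and the anestrous pituitary library. The list included COL3A1, at 473 and 244 RPM against 34.5 and 20.1 in hypothalamus and 7663 and 9856 in ovary libraries. All 6 smooth muscle genes were lower than the ovary, beside the same 19.8% of all genes. Of 9 endothelial genes TIE1 and CLDN5 were lower than both, beside 6.17% of all genes. TIE1 had a hypothalamus difference of -1.01 that shrank to -0.72 or -0.74 under the other scalings. Its call also ended without the estrous hypothalamus library or any 1 pituitary library (adjusted p = 0.0578 to 0.101). CLDN5, a claudin of the blood-brain barrier, stood at 11.0 and 5.58 RPM against 75.0 and 71.5 in hypothalamus and 60.0 and 70.1 in ovary libraries, while PECAM1 was higher than the hypothalamus and lower than the ovary. No tested gene of red blood cells (2), skeletal muscle (2) or bone, cartilage and nasal or oral epithelium (4) was called in the same direction against both tissues. These lists are too small to set apart from the shares over all genes. HBB stood at 53.2 and 65.2 RPM in the pituitary, 22.5 and 16.6 in the hypothalamus and 51.7 and 15.5 in the ovary. How far the share of each cell type in a sample takes part in the differences was not tested.

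Some genes higher than both tissues also differed between the 2 pituitary libraries. Of the 413, 29 differed by at least 1 in log2(RPM + 1) between the libraries (7.02%), 23 higher in the estrous and 6 in the anestrous one, compared with 2.75% of all genes tested and 2.16% of the 832 lower genes. The sets were not matched for pituitary level. The pseudocount shrinks this difference at low RPM, so these shares are not like for like. The 6 included FSHB and TYRP1, an enzyme of pigment synthesis, at 1.70 and 15.4 RPM in the pituitary and at most 0.129 elsewhere, a gene named after its values were seen whose call ended in 6 alternatives (adjusted p = 0.0533 to 0.146). Among the 23 were POMC, AVPR1B, GNRHR, TSHB and IGFBP1, at 89.4 and 14.9 RPM, the last also named after its values were seen. With 1 pituitary library per state these differences have no replicate check.

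The dominant genes entered every value above through the library totals. The 18 genes that held over 1% of reads in any library took 35.1% and 38.0% of pituitary reads, 20.7% and 22.0% of hypothalamus reads and 5.76% and 9.51% of ovary reads. With all reads as the base, the median gene lay 0.26 below the hypothalamus and 0.27 below the ovary on the log2 scale, and 33.2% of the genes called against both tissues were higher. Leaving the 18 genes out of the totals moved the medians to 0.01 and 0.21 and the calls to 695 higher and 489 lower (58.7% higher). Trimmed means of M values gave 608 and 501 (54.8%), and medians of ratios 584 and 521 (52.9%). All 413 genes higher in the first count stayed called under each of these scalings, and of the 832 lower genes 484, 501 and 521 stayed called. In the limma fits the direction in which most calls pointed changed with the scaling, while the set of higher genes grew around the same 413. Each of these scalings raised the median differences, which favours higher calls, so that keeping all 413 is no separate check of them. With edgeR and DESeq2, 392 and 407 of the 413 stayed called higher. Lower calls were still the more numerous there, at 600 against 563 and 809 against 617.

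**Figure D5:**
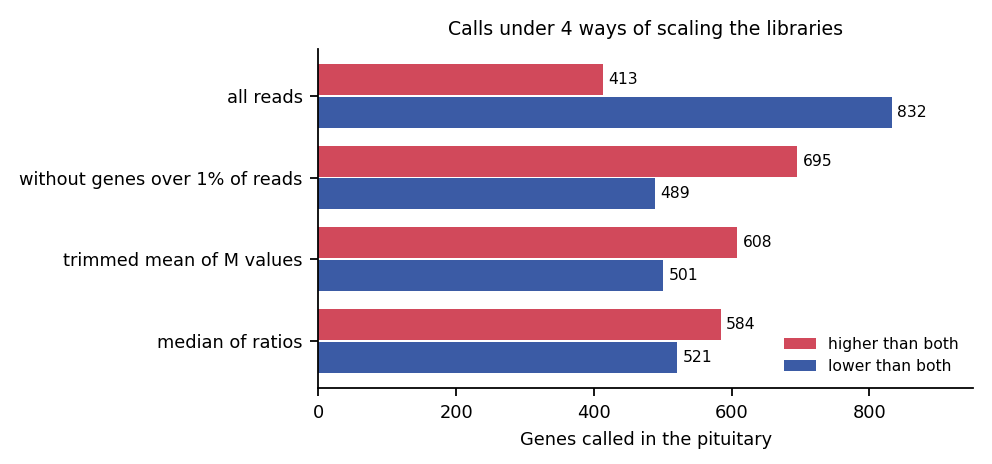
Number of genes called higher (red) or lower (blue) in the pituitary than in both other tissues under 4 ways of scaling the libraries. With all reads as the base the lower bar is the longer (832 against 413), and in the other 3 scalings the higher bar is (695, 608 and 584).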

How the data were processed

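RNA of 6 libraries was extracted with Trizol and prepared with a TruSeq kit, per the labels' protocols, and sequenced on an Illumina HiSeq instrument, per the series' design text. The submitters' processing notes name TopHat2 2.1.0. The counting tool, genome build, annotation release and use of strand are not given in the sources used here. The deposited signal of each gene, made by the authors with DESeq, per the file headers and labels, is a read count divided by the size factor of its library, in 1 table per tissue. The worth of 1 read was taken from the smallest value of a column and refined by least squares on its low values. All values above 0 (100%) then came out whole within 0.01 of a read, and the reads of 19465 genes were turned into RPM. Symbols came from the deposited tables (12762 genes) and then a list of Ensembl pig names (14419 in all), and 555 of 9651 genes named by both differed. ESR1, PTPRN2, IL6R, INSR, ALDH1A3 and PDGFRB occur at 2 places, and the entry with the higher mean RPM was used, so their reads may be divided.

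Genes with a mean of at least 1 RPM (13483) were fitted with limma 3.58.1 in R 4.3.3 on log2(RPM + 1), with tissue as the only term and a trend in the variance (3 residual and 3.42 prior degrees of freedom). The pseudocount understates differences of genes with few reads. Two-sided p-values were adjusted by Benjamini-Hochberg over all genes, for each contrast. A call against both tissues needed an adjusted p of at most 0.05 and a difference of at least 1 in the same direction in each. The count tests, edgeR 4.0.16 and DESeq2 1.42.0, and other scalings, pseudocounts (0.25 and 5 RPM), filters (none and 10 RPM), a state term and leaving out each library were alternatives. The limma fit with no fold minimum was tested on simulated data of 13483 genes with 200 changed. It recovered 70.5% of 4-fold changes, with 0 false calls, and 0% of 2-fold changes. Adjusted p depends on how many genes differ, so the power for 2-fold differences in the real libraries is not known from this simulation. With no fold minimum, 495 genes were called higher and 1142 lower than both tissues in the real libraries. Zero-read tissues were given a floor of 3 reads over the tissue, which covers counting error only.

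The members, the 29 gene lists and the rules were chosen with earlier results of these data known, so no list is independent support. Named genes were all tested members of the 4 lists of hormones, lineage factors, receptors and granules, up to 4 members of every other list with the largest smaller difference, and the 20 higher and 15 lower genes with the largest smaller difference (145 genes). Another 39 were named after their values were seen, to show a list or a term. Some named genes are not reported here. Across 13483 genes the differences between states in a pair of tissues correlated at r = 0.209 for hypothalamus and pituitary, 0.003 for hypothalamus and ovary and 0.015 for pituitary and ovary, so the states were not treated as pairs.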

Additional observations from a re-analysis of the deposited data

Results flagged for a closer look

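For 2 genes the pituitary lay on opposite sides of the ovary in the 2 states, which was not tested, since each state has 1 library per tissue. ALDH1A2, an enzyme of retinoic acid synthesis, was -1.56 from the ovary in the estrous libraries and 1.10 in the anestrous ones on the log2(RPM + 1) scale. ESR1, an estrogen receptor, was -1.05 and 1.55. In both genes the ovary values differed more between the states than the pituitary values did, with ALDH1A2 at 435 and 91.6 RPM in the ovary and 147 and 198 in the pituitary, and ESR1 at 126 and 23.6 and 60.4 and 71.1.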

How the results depend on the processing

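Of the 91 named genes called against both tissues, 55 were tested and called in all 16 alternatives. Another 8 kept the call in every alternative that tested them, but the filter of 10 RPM left them untested, as it did 16 of the 91 in all. None of the 91 took the opposite sign where tested. All 6 hormones were called higher in every alternative run. Leaving the 18 dominant genes out of the totals gave 695 higher and 489 lower than both tissues, and 2540 higher and 1673 lower than the ovary. Trimmed means gave 501 and medians of ratios 521 lower than both. A pseudocount of 5 gave 445 lower than both and 1060 higher than the ovary. A filter of 10 RPM, which leaves 9111 genes, gave 213 higher than both, 1951 lower than the hypothalamus and 999 higher than the ovary, and DESeq2 gave 1882 higher than the hypothalamus. Leaving out 1 library gave 236 to 514 higher and 257 to 1065 lower than both, 534 to 1347 higher and 1562 to 3284 lower than the hypothalamus, and 1040 to 1966 higher and 1226 to 2989 lower than the ovary. A lone library was then assumed to vary like the other tissues. Without the mitochondrial genome genes the hormone share of pituitary reads was 26.7%, and it was 24.9% to 26.0% with single libraries left out. With state as a replicate block the counts were 417 higher and 828 lower than both, of which 403 and 788 were the same genes as without the block, and the counts against single tissues stayed within 1.5 times. The causes of these shifts were not tested. Genes near the filter rest on few reads.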
